A study of Homo sapiens with 27 samples.

Results

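The genes described here are 35 markers of monocyte and macrophage differentiation, and their mRNA was followed in U937 cells treated with matrine. U937 is a human leukaemia cell line of monocytic character, and matrine is a quinolizidine alkaloid from Sophora plants. The list was given by gene symbol, and 34 of the 35 symbols were matched through GENCODE to an identifier among the 57905 genes of the deposited U937 table. MRC1, the macrophage mannose receptor, was not matched and is not analysed here. The libraries came from 3 groups, with 3 libraries in each: control cells, cells collected 30 min after matrine was added, and cells collected after 24 h, both at a dose of 0.8 mg/ml. The vehicle named in the study was ddH2O, the labels name no other agent or genetic change in any group, and the same 3 control libraries served both times. The sources used here do not name the culture time of the control, so 24 h of treatment and the time in culture cannot be told apart. The series also has HL-60 and K562 libraries, not analysed here. The paper describes its data in general as coming from independent replicates, but the labels do not say that the libraries of a group came from separate cultures, so the p-values measure the spread between these libraries, which may be technical.

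Monocytes arise from myeloid precursors under the control of colony-stimulating factors and of transcription factors such as PU.1. As they mature they gain adhesion integrins, receptors for the constant part of antibodies, receptors for complement fragments and formylated peptides, Toll-like receptors, and the enzyme complex that makes the oxidative burst. U937 cells sit early on this path and are widely used as a model in which agents such as phorbol ester or vitamin D raise these markers.

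Library totals lay between 17314931 and 21930018 counts, and within each group the counts spread wider than sampling noise alone gives. Levels are given in FPKM, that is fragments scaled by transcript length and by library size, as the authors deposited them. FPKM is thus set per length, so levels may be compared between genes. Changes are log2 fold changes with standard errors (SE) from edgeR's quasi-likelihood test on the counts with TMM normalization, with p adjusted by the Benjamini-Hochberg method over every gene tested. Genes entered the test when the 6 libraries compared had an FPKM above 1 on average. They were called higher or lower where the adjusted p was below 0.05 and the change reached 1.5-fold. An exact permutation test of 3 against 3 libraries cannot give a p below 0.1 and was not used for calls.

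General markers of myeloid cells, not all limited to them, were present in the control libraries. CD33, a sialic acid-binding receptor of myeloid cells, stood at 14.7 ± 0.298 FPKM (SD, n = 3), SIRPA at 66.7 ± 0.548 FPKM (SD, n = 3) and ITGB2 at 113.6 ± 2.00 FPKM (SD, n = 3). Markers of monocytes varied widely in level: S100A9 was at 14.1 ± 0.246, TLR4 at 9.96 ± 0.744 and FCGR1A at 3.12 ± 0.234 FPKM (SD, n = 3), while CSF1R was at 0.627 ± 0.0874 and CD14 at 0.0333 ± 0.0289 FPKM (SD, n = 3). In all, 8 members lay below 1 FPKM in every group: CD14, CSF1R, FPR1, CD86, CD163, MSR1, LILRB4 and CCR2. S100A8 was above 1 FPKM in the 24 h group alone and its mean did not pass the filter. The other 25 members were tested at 24 h against the control. T cell, dendritic cell, fibroblast and epithelial marker lists summed to at most 0.47 FPKM in any library, with CD3D, CD3E and CD3G at 0 throughout. Of the other lineages, granule proteins were abundant, with ELANE, neutrophil elastase, at 885.1 ± 86.1 FPKM (SD, n = 3) in the control.

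After 24 h of matrine, 11 of the 25 members tested were higher than in the control and 0 were lower. Of all 12035 genes tested in this comparison, 15.1% were called higher and 11.2% lower. The 11 members were the integrin subunits ITGAM, ITGAX and ITGB2, the antibody receptor FCGR2A, the signalling adaptors FCER1G and TYROBP, the complement receptor C5AR1, the chemokine receptor CCR1, the growth factor receptors CSF2RA and CSF3R, and the oxidase subunit NCF1. C5AR1 and ITGAX passed the filter only through the 24 h group and LILRB1 only through the control. Without these 3 genes, 9 of 22 members were higher and 0 lower. The median log2 fold change of the 25 members was 0.47, against 0.0082 for all genes tested. Another 9 members had an adjusted p below 0.05 at a fold change under 1.5, of which 5 were higher and 4 lower. With these, 20 members were below that p at any fold, as were 63.3% of all genes tested. The remaining 5 did not pass at any fold change. Since these are bulk libraries, more expressing cells and more RNA per cell cannot be told apart.

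**Figure D1:**
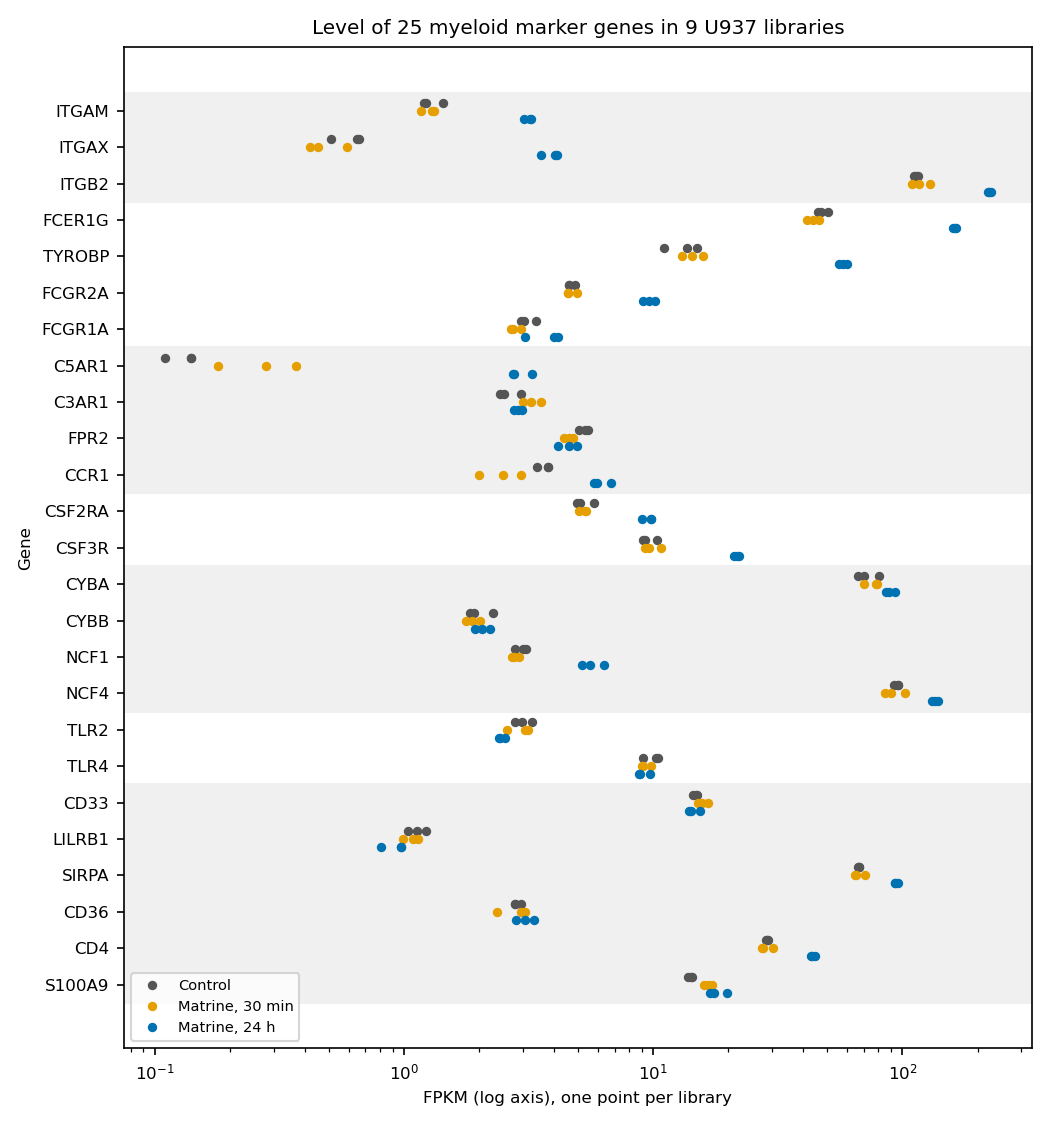
FPKM of the 25 tested members in each of the 9 libraries, on a log axis, with 1 point per library and colours for control, 30 min and 24 h; shaded bands separate groups of genes by role. The 3 points of the 24 h group stand to the right of all others for 11 called genes, while the control and 30 min points overlap for most genes.

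Promoters of the members, called or not, were searched for short motifs as a description of the sequence around their start. RefSeq (GRCh38.p14) gave a window of 250 bases before and 50 bases after the start for 28 of the 35 members and for 9 of the 11 called genes, ITGAX and ITGB2 not among them. GAGGAA, the core bound by PU.1 and other ETS factors, was searched on both strands. It was present in 17 of the 28 members, in 6 of the 9 called genes and in 27.6% of 27305 promoters. Members that were not called thus held it as well, and a link to the change was not tested. AGGAAGT, which overlaps it in part, was in 6 of 28 members and in CCR1, NCF1 and TYROBP of the called genes, against 8.31% of all promoters. TGANTCA, the AP-1 motif, was in 5 of 28 members and 0 of the 9, against 7.76%, and CACGTG, the E-box, in 1 of 28 and 0 of the 9, against 7.43%. TATAAA was in 5 of 28 members, among them CSF3R and FCGR2A of the called genes, against 12% of all promoters. The 150 bases before the start that RefSeq gives are shown for the 6 called genes that held GAGGAA, 5′ to 3′ on the strand of the gene, with GAGGAA or its reverse complement TTCCTC in capitals. This start can lie inside the GENCODE gene: the stretches of FCGR2A, CSF2RA and ITGAM share 27, 14 and 8 bases with GENCODE exons of the same gene, and that of C5AR1 lies within the span GENCODE gives the gene. A match is a description of letters and not a measured binding site.
ITGAM (chr16:31259825-31259974, plus strand): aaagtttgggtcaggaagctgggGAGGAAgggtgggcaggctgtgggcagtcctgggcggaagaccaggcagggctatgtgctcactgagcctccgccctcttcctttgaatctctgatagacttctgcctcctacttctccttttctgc
TYROBP (chr19:35908296-35908445, minus strand): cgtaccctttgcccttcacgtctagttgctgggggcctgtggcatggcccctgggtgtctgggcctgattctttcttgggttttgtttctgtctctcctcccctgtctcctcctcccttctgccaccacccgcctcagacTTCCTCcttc
FCGR2A (chr1:161505307-161505456, plus strand): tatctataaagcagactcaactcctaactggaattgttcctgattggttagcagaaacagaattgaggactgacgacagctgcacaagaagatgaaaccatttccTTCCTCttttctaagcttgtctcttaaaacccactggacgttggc
NCF1 (chr7:74773861-74774010, plus strand): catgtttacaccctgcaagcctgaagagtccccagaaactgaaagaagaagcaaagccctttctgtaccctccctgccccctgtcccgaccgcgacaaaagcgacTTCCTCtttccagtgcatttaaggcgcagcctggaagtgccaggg
C5AR1 (chr19:47309711-47309860, plus strand): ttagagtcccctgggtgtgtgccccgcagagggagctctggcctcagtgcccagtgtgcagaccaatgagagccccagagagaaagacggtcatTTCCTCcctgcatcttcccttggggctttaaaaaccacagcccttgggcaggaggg
CSF2RA (chrX:1268664-1268813, plus strand): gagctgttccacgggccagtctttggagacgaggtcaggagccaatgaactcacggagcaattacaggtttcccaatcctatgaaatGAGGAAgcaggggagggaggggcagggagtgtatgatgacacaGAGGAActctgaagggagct
The nearest match lay 5 bases before the start in TYROBP, 15 in CSF2RA, which held 2 matches, 40 in FCGR2A and NCF1, 51 in C5AR1 and 122 in ITGAM. The stretches of FCER1G, CSF3R and CCR1 held no such letters in this window.

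The β2 integrins bind complement and adhesion ligands, and each pairs an α chain with the shared β2 chain encoded by ITGB2. ITGAM (CD11b, ENSG00000169896, chr16:31259967-31332892 in GRCh38) was at 1.20, 1.22 and 1.43 FPKM in the control libraries, at 1.29, 1.32 and 1.17 after 30 min, and at 3.21, 3.22 and 3.02 after 24 h. All 24 h libraries lay above all others, and the control and 30 min libraries overlapped. The log2 fold change at 24 h was 1.25 (SE 0.111, adjusted p = 3.7e-09, edgeR). ITGAX (CD11c, ENSG00000140678, chr16:31355134-31382999), its neighbour on chromosome 16, was at 0.66, 0.51 and 0.65 FPKM in the control, at 0.45, 0.42 and 0.59 after 30 min and at 4.03, 4.10 and 3.56 after 24 h. Its mRNA thus went from below 1 FPKM to above 3.5 in every library, with a log2 fold change of 2.64 (SE 0.132, adjusted p = 5.8e-13, edgeR). ITGB2 (CD18, ENSG00000160255, chr21:44885953-44931989) was abundant from the start and was at 111.7, 115.7 and 113.4 FPKM in the control, at 116.7, 108.8 and 128.5 after 30 min and at 220.7, 222.4 and 226.0 after 24 h. Here too the 24 h libraries stood apart, with a log2 fold change of 0.93 (SE 0.0575, adjusted p = 1.6e-11, edgeR). Exons of ITGB2 overlap the antisense gene ITGB2-AS1, which was itself listed at 0.157 ± 0.0929 FPKM (SD, n = 3) in the control and 0.63 ± 0.271 (SD, n = 3) at 24 h. The strand setting of the counting is not given in the sources used here. Exons of FCGR1A, LILRB1, SIRPA and NCF4 also overlap those of genes on the opposite strand in GENCODE, which limits their counts in the same way. Exons of FCGR2A, TLR4, CD163 and LILRB4 overlap those of genes on the same strand, which limits their counts whatever the strand setting.

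Some receptors for antibodies signal through short adaptor chains that carry activation motifs. FCER1G, the common γ chain (ENSG00000158869, chr1:161215234-161220699), was at 45.8, 50.4 and 47.3 FPKM in the control, at 46.3, 41.3 and 43.7 after 30 min, and at 162.3, 159.3 and 163.3 after 24 h. The spread within each group was small beside the step to 24 h, whose log2 fold change was 1.71 (SE 0.0676, adjusted p = 1.3e-14, edgeR). TYROBP (DAP12, ENSG00000011600, chr19:35904401-35908295), a related adaptor that couples to receptors of the natural killer and TREM families, was at 11.1, 14.97 and 13.6 FPKM in the control, at 14.3, 15.8 and 13.1 after 30 min, and at 55.5, 57.6 and 60.2 after 24 h. The log2 fold change was 2.08 (SE 0.103, adjusted p = 5e-13, edgeR), and no 24 h library came near the others. FCGR2A (CD32, ENSG00000143226, chr1:161505430-161524013), a low-affinity receptor for IgG, was at 4.87, 4.61 and 4.58 FPKM in the control, at 4.57, 4.96 and 4.54 after 30 min, and at 9.61, 10.1 and 9.10 after 24 h. It rose by a log2 fold change of 0.99 (SE 0.0763, adjusted p = 4.7e-10, edgeR), without overlap. Its near copies FCGR2B and FCGR2C were listed at 0.353 and 0.29 FPKM on average at 24 h. FCGR1A (CD64), the high-affinity IgG receptor that needs FCER1G at the cell surface, behaved otherwise. Its level was 3.03, 3.39 and 2.95 FPKM in the control and 3.07, 4.16 and 4 at 24 h, so the groups overlapped, and its log2 fold change of 0.21 (SE 0.128, adjusted p = 0.16, edgeR) did not pass. Reads of FCGR1A may be shared with its pseudogene FCGR1BP, listed at 2.17 FPKM in the control and 2.23 at 24 h.

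Receptors for complement fragments, formylated peptides and chemokines guide monocytes to sites of infection. C5AR1, the receptor for C5a (ENSG00000197405, chr19:47290023-47322066), held 7, 8 and 7 counts in the control, 18, 11 and 22 at 30 min and 198, 164 and 178 at 24 h. The mean FPKM of the control was 0.13 ± 0.0173 (SD, n = 3), that of the 30 min group 0.277 ± 0.0950 (SD, n = 3) and that of the 24 h group 2.92 ± 0.303 (SD, n = 3). All 30 min libraries lay above the control in counts and FPKM, but the gene was below the filter in that comparison, and a fit without the filter gave a log2 fold change of 1.09 (SE 0.381, adjusted p = 0.20, edgeR). At 24 h the log2 fold change of C5AR1 was 4.42 (SE 0.255, adjusted p = 5.2e-12, edgeR), a value that rests on few control counts. C3AR1, the receptor for C3a, was at 2.96, 2.53 and 2.42 FPKM in the control, at 3.55, 2.99 and 3.22 after 30 min and at 2.97, 2.86 and 2.77 after 24 h. The 24 h and control libraries overlapped, and the log2 fold change was 0.07 (SE 0.141, adjusted p = 0.69, edgeR). FPR2, a formyl peptide receptor of broad ligand range, was at 5.30, 5.05 and 5.46 FPKM in the control and 4.13, 4.59 and 4.94 after 24 h. Each 24 h library was below each control library, but the log2 fold change of -0.26 (SE 0.0949, adjusted p = 0.023, edgeR) was under 1.5-fold. CCR1, a receptor for CCL3 and CCL5 (ENSG00000163823, chr3:46201711-46208313), was at 3.43, 3.78 and 3.79 FPKM in the control, at 2.00, 2.49 and 2.94 after 30 min and at 5.76, 6.76 and 5.93 after 24 h. The 3 groups did not overlap, and the 30 min group was the lowest. At 24 h its log2 fold change was 0.70 (SE 0.123, adjusted p = 4.5e-05, edgeR).

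Receptors for the colony-stimulating factors carry the signals for myeloid growth and maturation. CSF2RA, the ligand-binding chain for GM-CSF (ENSG00000198223, chrX:1268800-1310381), was at 5.79, 5.08 and 4.95 FPKM in the control, at 5.39, 5.32 and 5.02 after 30 min, and at 9.76, 9.76 and 9.05 after 24 h. CSF3R, the receptor for G-CSF and a regulator of granulocyte formation (ENSG00000119535, chr1:36466043-36483278), was at 9.06, 9.30 and 10.4 FPKM, at 9.31, 9.65 and 10.7, and at 21.6, 21.99 and 21 in the same order. In both genes the 24 h libraries lay above the other groups, with log2 fold changes of 0.80 (SE 0.0845, adjusted p = 4.9e-08, edgeR) for CSF2RA and 1.12 (SE 0.0656, adjusted p = 6.5e-12, edgeR) for CSF3R. CSF1R, the M-CSF receptor that macrophages depend on, held 57, 65 and 62 counts in the control and 72, 71 and 81 after 24 h, at 0.693 ± 0.0231 FPKM (SD, n = 3). In the fit without a filter its log2 fold change was 0.04 (SE 0.199, adjusted p = 0.95, edgeR).

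The phagocyte oxidase joins 2 membrane subunits, CYBA and CYBB, to cytosolic ones that include NCF1 and NCF4. NCF1 (p47phox, ENSG00000158517, chr7:74774011-74789315) was at 2.78, 3.01 and 3.10 FPKM in the control, at 2.90, 2.71 and 2.77 after 30 min and at 5.58, 5.19 and 6.33 after 24 h, a log2 fold change of 0.90 (SE 0.107, adjusted p = 2.8e-07, edgeR). NCF1 has near-identical pseudogenes, with NCF1B at 3.54 ± 0.180 in the control and 8.87 ± 0.565 FPKM at 24 h and NCF1C at 2.84 ± 0.135 and 7.48 ± 0.573 FPKM (SD, n = 3), so the split of reads among these copies is uncertain. NCF4 (p40phox) was at 95.7, 95.8 and 92.2 FPKM in the control and 131.1, 139.0 and 135.0 after 24 h, above every control library but under 1.5-fold, at a log2 fold change of 0.47 (SE 0.0646, adjusted p = 2.3e-06, edgeR). CYBA (p22phox), at 72.3 ± 7.35 FPKM (SD, n = 3) in the control and 89.3 ± 3.55 (SD, n = 3) after 24 h, had a log2 fold change of 0.25 (SE 0.072, adjusted p = 0.0041, edgeR). CYBB (gp91phox), the catalytic subunit, had the lowest level of the 4 genes, at 2.28, 1.84 and 1.91 FPKM in the control and 2.22, 1.93 and 2.05 after 24 h. Its groups overlapped, and its log2 fold change was -0.01 (SE 0.122, adjusted p = 0.95, edgeR).

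Toll-like receptors recognise microbial products, and 2 members encode them. TLR2, a receptor for lipoproteins, was at 2.79, 2.98 and 3.26 FPKM in the control and 2.43, 2.41 and 2.55 after 24 h, without overlap, at a log2 fold change of -0.33 (SE 0.111, adjusted p = 0.013, edgeR). TLR4, the receptor for lipopolysaccharide, was at 10.5, 9.11 and 10.3 FPKM in the control and 9.70, 8.73 and 8.88 after 24 h, with overlap in FPKM and a log2 fold change of -0.18 (SE 0.0724, adjusted p = 0.039, edgeR). Both were on the lower side and neither reached 1.5-fold. CD14, their co-receptor, held 2, 2 and 0 counts in the control, 9, 2 and 4 at 30 min and 10, 1 and 2 at 24 h. At such counts no difference was detectable, and the log2 fold change at 24 h in the fit without a filter was 1.4 (SE 1.01, adjusted p = 0.36, edgeR).

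**Figure D2:**
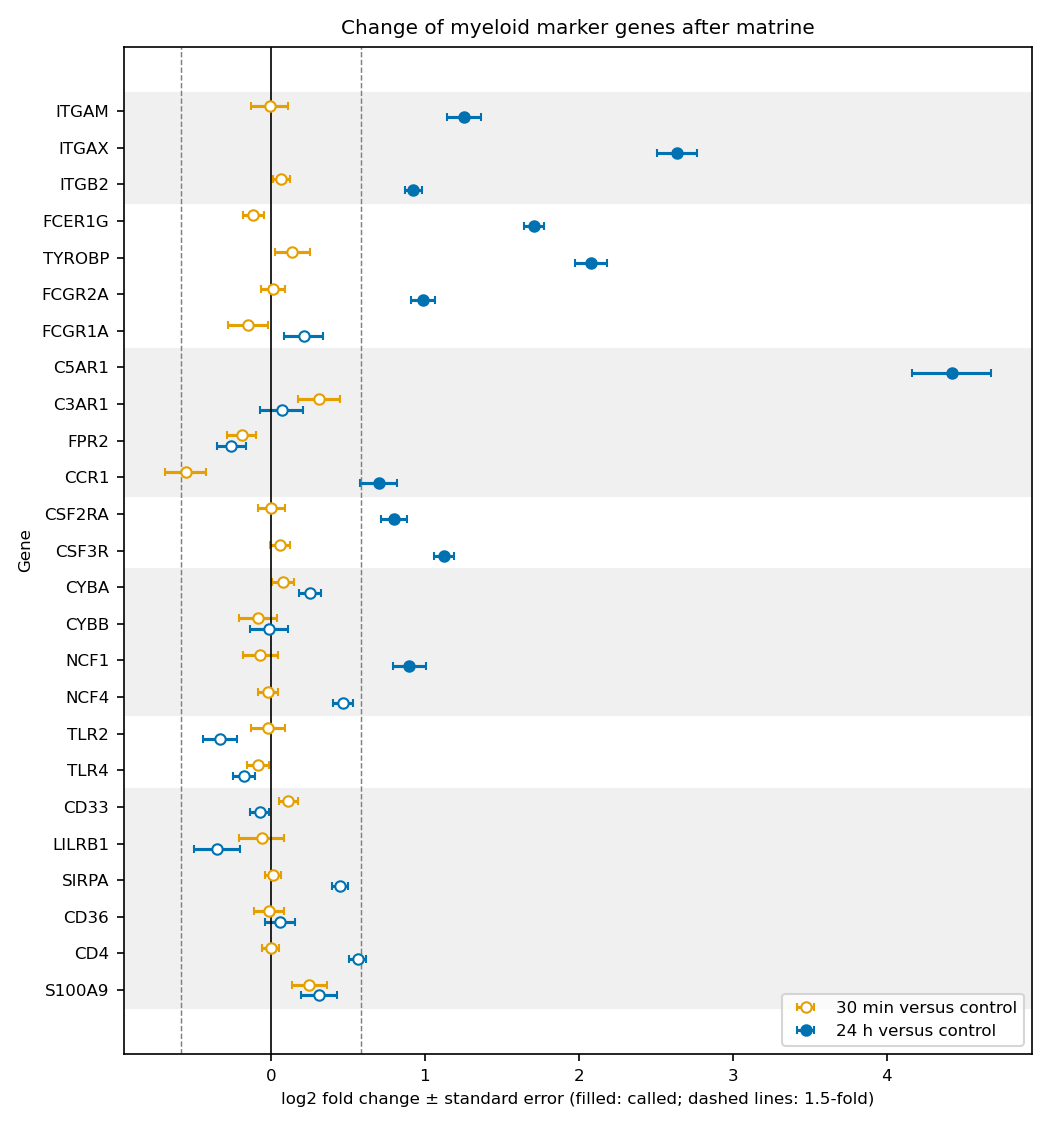
log2 fold change of the tested members against the control at 30 min (orange) and 24 h (blue), with bars of 1 standard error, filled points for called genes and dashed lines at 1.5-fold. Filled points appear only at 24 h and only on the right, from 0.70 for CCR1 to 4.42 for C5AR1; C5AR1 and ITGAX have no 30 min point because they were not tested there.

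Of the remaining surface markers and calcium-binding proteins, those that passed the filter were not called in either direction. SIRPA, the receptor for CD47, was at 67.2, 66.1 and 66.9 FPKM in the control and 96.2, 93.2 and 93.1 after 24 h, a log2 fold change of 0.45 (SE 0.0531, adjusted p = 2.5e-07, edgeR). CD4, which monocytes carry at low level, was at 28.5, 28.5 and 28.8 FPKM in the control and 42.8, 43.5 and 44.7 after 24 h. Its log2 fold change of 0.56 (SE 0.0572, adjusted p = 2.8e-08, edgeR) was just under the threshold of 0.58. Neither gene's groups overlapped. S100A9, one chain of calprotectin, was at 13.8, 14.3 and 14.1 FPKM in the control, at 17.2, 16.0 and 16.7 after 30 min, and at 16.95, 19.7 and 17.5 after 24 h, with a log2 fold change at 24 h of 0.31 (SE 0.115, adjusted p = 0.023, edgeR). S100A8, the other chain, did not pass the filter and was much weaker than its partner, with 3, 9 and 16 counts in the control, 9, 3 and 6 at 30 min and 23, 25 and 23 at 24 h. LILRB1, an inhibitory receptor for MHC class I, was at 1.22, 1.04 and 1.13 FPKM in the control and 0.97, 0.97 and 0.81 after 24 h, with a log2 fold change of -0.35 (SE 0.150, adjusted p = 0.046, edgeR). CD33 was at 14.99, 14.8 and 14.4 FPKM in the control and 15.4, 14.2 and 14.0 after 24 h, with a log2 fold change of -0.07 (SE 0.0628, adjusted p = 0.33, edgeR). CD36, a scavenger receptor for oxidised lipoproteins, was at 2.96, 2.79 and 2.78 FPKM in the control and 3.07, 3.32 and 2.81 after 24 h, with a log2 fold change of 0.06 (SE 0.0955, adjusted p = 0.61, edgeR). The FPKM of both overlapped between groups, while the normalised counts of CD33 were lower in every 24 h library than in every control library.

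Weak members were read from their counts. FPR1, the classical formyl peptide receptor, held 11, 8 and 2 counts in the control, 9, 3 and 1 at 30 min and 30, 38 and 47 at 24 h. CD86, a ligand that costimulates T cells, held 0, 1 and 2 counts in the control, 0, 3 and 0 at 30 min and 20, 7 and 34 at 24 h. Every 24 h library of both genes was above every other library, although the means stayed below 1 FPKM. For CD86 the ratio of summed counts at 24 h to those of the control, scaled by library totals, was 18.6, with an exact 95% interval from 6.08 to 92.8 that covers counting error only. A fit of 28848 genes without the filter, which called 9.03% higher and 6.93% lower at 24 h, called FPR1 (log2 fold change 2.20, SE 0.413, adjusted p = 6.6e-07), CD86 (3.94, SE 0.757, adjusted p = 1.4e-06) and S100A8 (1.07, SE 0.435, adjusted p = 0.046) higher by edgeR. For FCER1G, at a similar log2 fold change and SE, the adjusted p was 1.4e-106 here against 1.3e-14 with the filter (both edgeR). The p-values of the fit without the filter may thus understate the spread between libraries, and S100A8 lay close to 0.05. CCR2, the receptor for CCL2 on classical monocytes, held 19, 12 and 13 counts in the control, 9, 8 and 6 at 30 min and 2, 18 and 17 at 24 h. One of its 24 h libraries lay below every other library and the others lay within the control range, and it was not called at 24 h, at a log2 fold change of -0.48 (SE 0.455, adjusted p = 0.50, edgeR), or at 30 min, where that fit called 0.0971% of genes higher and 0.329% lower. CD163, the scavenger receptor for haemoglobin on macrophages, had at most 1 count in any library. MSR1 and LILRB4, a scavenger receptor and an inhibitory receptor, had 0 counts in all 9 libraries, which at a limit of 3 counts allows up to 0.173 CPM (counts scaled to library size) in the shallowest library.

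**Figure D3:**
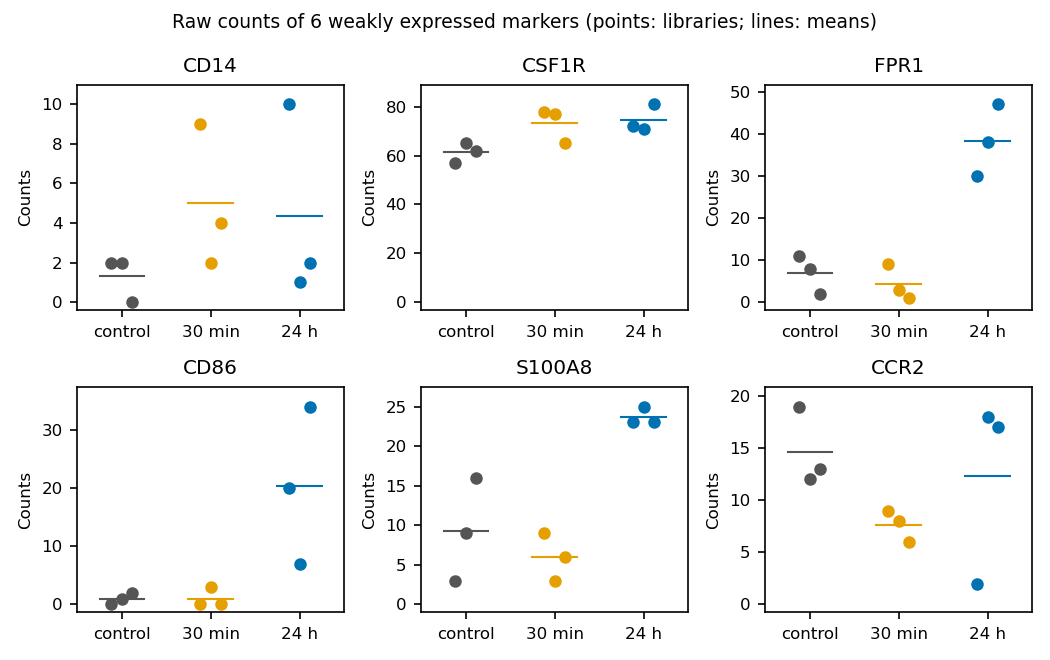
Raw counts of 6 weakly expressed members in control, 30 min and 24 h libraries, with 1 point per library and a line at the mean of each group. The 24 h points of FPR1, CD86 and S100A8 lie above all others, from 7 counts upward for CD86, while those of CD14 and CCR2 are spread widely and overlap the other groups.

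After 30 min, 0 of 23 members tested were called in either direction by edgeR's quasi-likelihood test. The background was low as well, since 0.0949% of 11587 genes were called higher and 0.544% lower. C3AR1 and S100A9 on the higher side and CCR1 on the lower side had an unadjusted p below 0.05 in the edgeR test. The share of all genes at that p was not counted, so nothing is drawn from this. The limit of 1.5-fold left out CCR1, whose log2 fold change was -0.55 (SE 0.134, adjusted p = 0.036, edgeR) and whose 30 min libraries were all below the control. At any fold change, CCR1 was thus the 1 member with an adjusted p below 0.05, beside 1.62% of all genes. For C3AR1 the log2 fold change was 0.31 (SE 0.138, adjusted p = 0.38, edgeR) and for S100A9 it was 0.25 (SE 0.115, adjusted p = 0.41, edgeR). The log2 fold changes of the 23 members ran from -0.55 to 0.31, with a median of -0.0077, against -0.0043 for all genes tested. In normalised counts per library, 3 members had all 30 min libraries above the control and 2 all below, where 6.14% and 7.68% of all genes did so. Without the third 30 min library CCR1 alone of the members was called lower, at -0.69 (adjusted p = 0.013, edgeR).

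The step from 30 min to 24 h was tested directly, in a comparison that shares the 24 h libraries with the one above. Of 24 members tested, 11 were higher at 24 h and 0 lower, beside 15.4% higher and 11.5% lower among 11981 genes. Without C5AR1 and ITGAX, which again passed through the 24 h group alone, 9 of 22 were higher. The 11 genes were ITGAM, ITGAX, ITGB2, CSF2RA, CSF3R, FCGR2A, FCER1G, C5AR1, TYROBP, NCF1 and CCR1. For CCR1, whose 30 min level was the lowest of its 3 groups, the log2 fold change from 30 min to 24 h was 1.23. Of all calls in this comparison 42.8% were lower, and 32.6% when scaled by library totals alone. Members whose groups did not overlap in normalised counts against the control at 24 h numbered 15 above and 5 below of 25, where 30.6% and 39.0% of all genes did so.

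**Figure D4:**
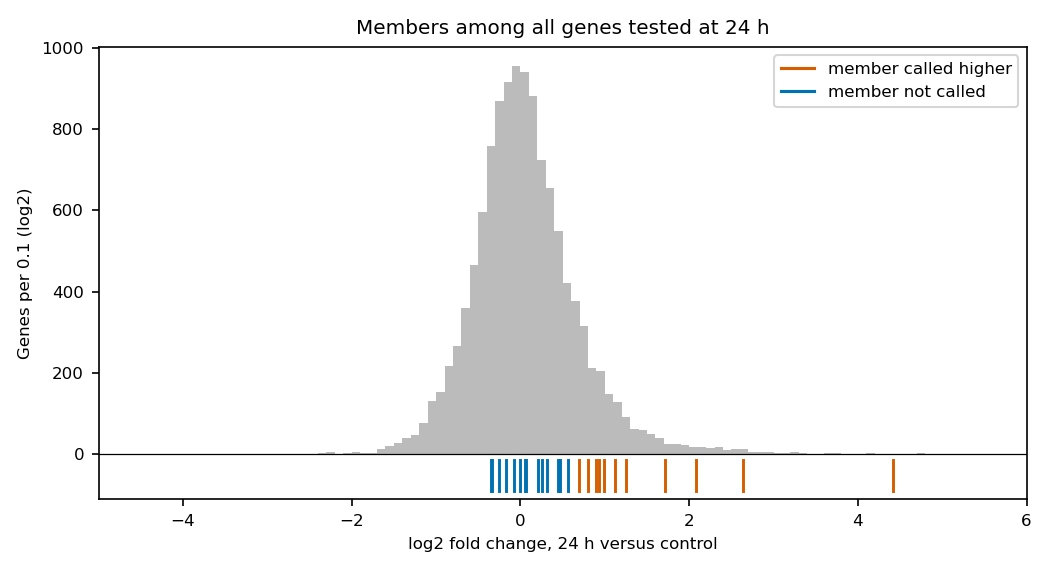
Distribution of the log2 fold change at 24 h against the control over 12035 genes in bins of 0.1, with the 25 tested members as ticks below it (orange, called higher; blue, not called). The members reach from -0.35 to 4.42 and none is in the called range on the left; 1 gene lies outside the plotted range.

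Proteins that act with the members were followed in a list of 20 partners. Of 17 tested at 24 h, 6 were higher and 0 lower, and 6 of 16 without TIRAP, which passed through the 24 h group alone, beside 15.1% higher and 11.2% lower among all genes tested. Those named here are FGR, a Src kinase of myeloid cells, at a log2 fold change of 1.19, the Toll-like receptor kinase IRAK4 at 1.02, the adaptor HCST (DAP10) at 0.87 and the GTPase RAC2 of the oxidase at 0.62. FGR went from 23.2 ± 0.221 to 54.8 ± 1.94 FPKM (SD, n = 3). The median log2 fold change over the 17 partners was 0.50, against 0.0082 for all genes. At 30 min 0 of 16 partners were called, beside 0.0949% higher and 0.544% lower among all genes tested. IRAK4 exons overlap those of TWF1 and HCST exons those of another gene in GENCODE, which limits both counts.

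A wider list held 54 other genes of monocytes and macrophages, of which 23 were below 1 FPKM in every group. Of 29 tested at 24 h, 11 were higher and 1 was lower, and 9 and 1 of 27 without MARCO and CX3CR1, which passed through the 24 h group alone. The shares over all genes were 15.1% higher and 11.2% lower. The median log2 fold change of the 29 was 0.08, against 0.0082 for all genes. The largest increases were those of PILRA (1.98), GPNMB (1.94), CD300A (1.79), MARCO (1.75), ITGAL (1.38) and S100A10 (1.27), all log2 fold changes. GPNMB, a lysosomal glycoprotein, went from 42.6 ± 1.25 to 168.9 ± 3.42 FPKM (SD, n = 3), and ITGAL (CD11a), another α chain that pairs with ITGB2, from 8.58 ± 0.579 to 23.1 ± 1.43 FPKM (SD, n = 3). PILRA exons overlap those of PILRB. FCN1, a secreted lectin of monocytes, fell, with a log2 fold change of -0.66 (SE 0.104, adjusted p = 1.3e-05, edgeR). At 30 min, 2 of 27 were lower, the chemokine receptor CXCR4 (-0.68, adjusted p = 5.7e-08, edgeR) and THBD, thrombomodulin (-0.67, adjusted p = 6.2e-05, edgeR), and 0 were higher, beside 0.544% lower and 0.0949% higher among all genes.

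Some markers of other blood lineages were called at 24 h as well. Over all 12035 genes tested, 15.1% were called higher and 11.2% lower. Of 5 granule and neutrophil genes tested, 4 were higher, CAMP (log2 fold change 2.53), MPO (2.5), AZU1 (0.75) and ELANE (0.59), and PRTN3 was lower (-1.15). CAMP and MPO were below 1 FPKM in the control and passed the filter through the 24 h group alone, and without them 2 of 3 were higher and 1 lower. The summed level of this list of 7 genes ran from 1620 to 1953 FPKM in the control and from 1994 to 2123 FPKM at 24 h. In the natural killer list, NKG7 was higher, at 0.67, and made up nearly all of a sum that went from between 161.2 and 184.7 FPKM to between 276.3 and 291.6 FPKM, with KLRD1 at 0 counts throughout. PAX5, a B cell factor, was lower at -1.62 and CD79A higher at 0.74, both at or below 2.58 FPKM on average, with MS4A1 at 0. PAX5 passed the filter through the control alone, and without it 1 of 2 B cell genes tested was higher and 0 lower. The B cell list summed to between 4.33 and 5.46 FPKM over all 9 libraries. The erythroid list summed to between 2.4 and 4.12 FPKM, nearly all of it KLF1, with HBB, a globin gene that defines erythroid cells, at 0. The part of these changes in those of the members was not tested.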

How the data were processed

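RNA-seq of 9 U937 libraries was analysed. The submitters' processing notes name cutadapt 1.9.1, HISAT2 2.0.1 and HTSeq 0.6.1, and the genome build GRCh37, while the paper's methods name hg38; the paper names poly(A) selection or rRNA removal, without saying which was used here. The authors deposited a table with the raw count per gene, not normalized, and the FPKM they made from it. The annotation release, strand setting and handling of multi-mapped reads are not given in the sources used here. Coordinates printed are those of GENCODE (GRCh38), and the authors' coordinates were not used. Of 57905 identifiers, 51996 were matched to a symbol.

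Counts were tested with edgeR 4.0.16 (R 4.3.3), TMM normalization and 1 fit of the 9 libraries. The standard error of a log2 fold change was taken as its size divided by the square root of F. Groups that do not overlap were counted on the normalised log2 CPM scale. Alternatives used DESeq2 1.42.0, DESeq2's size factors, library totals, limma 3.58.1 on log2(FPKM + 0.1) or log2(FPKM + 1), quantile normalization, other filters and thresholds, a replicate block, the 6 libraries of a comparison alone, and each library left out. The procedure was tested on simulated data.

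The members, lists and tests were chosen with earlier results of these data known. All members are described, and of other lists the text names at most 6 called genes, taken from those of largest log2 fold change, and marker genes at or near 0 or highest in their list. The other cell lines of the series are not analysed here. A few genes of these lists are not reported here by name.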

Additional observations from a re-analysis of the deposited data

Results flagged for a closer look

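The difference between 24 h and 30 min of matrine was tested directly with edgeR's quasi-likelihood test. Of 24 members tested, 11 differed between the times at an adjusted p below 0.05 and at least 1.5-fold, all higher at 24 h. Among all 11981 genes tested, 15.4% were called higher and 11.5% lower. The log2 differences were 1.24 for ITGAM, 2.91 for ITGAX, 0.84 for ITGB2, 0.78 for CSF2RA and 1.04 for CSF3R. They were 0.95 for FCGR2A, 1.80 for FCER1G, 3.32 for C5AR1, 1.92 for TYROBP, 0.95 for NCF1 and 1.23 for CCR1. In each of these genes every 24 h library was above every 30 min library in normalised counts. The share of all genes for which this holds is not given here. Against the control at 24 h it was 30.6%. The control libraries are no side of this comparison, but they are part of the fit and so of its normalization and spread. The time in culture was not tested.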

How the results depend on the processing

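At 24 h against the control, the 11 called members kept their direction under every alternative run in which they were tested. The number of members higher at 24 h was 11 to 12 with each library left out. It was 7 with a mean FPKM above 5 and 6 at a fold change of at least 2. It was 12 with library totals and with limma at both pseudocounts, 13 with quantile normalization and 14 without a filter. Of all genes tested, 869 of 7273 were higher above 5 FPKM, 765 of 12035 at 2-fold and 2605 of 28848 without a filter. With a control library left out, 1745 of 12111 to 1841 of 12086 genes were higher. Of the 12035 genes, 1999 were higher with library totals, 1956 and 1485 with limma, and 1541 with quantile normalization. Against 30 min the number of members was 11 to 12 with a library left out, and 7 above 5 FPKM and at 2-fold. There, 913 of 7195 genes were higher above 5 FPKM and 777 of 11981 at 2-fold. With a control library left out, 1841 to 1883 of 11981 genes were higher against 30 min. At a fold change of at least 2, the log2 fold changes at 24 h of ITGB2, CSF2RA, FCGR2A, NCF1 and CCR1 no longer passed. C5AR1 ranged from 1.79 with a pseudocount of 1 to 4.47, and ITGAX from 1.61 to 2.69. CD4 passed 1.5-fold in 6 of 20 alternatives, and NCF4 with quantile normalization at 0.61. In that setting 1 member was lower, LILRB1. At 30 min, 0 to 1 members were lower with a library left out, the 1 being CCR1 without the third 30 min library.

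Signs turned only in genes that were not called. CYBB was at 0.0367 with library totals, 0.0419 with limma on log2(FPKM + 0.1), 0.0287 with a pseudocount of 1, 0.0841 without control replicate 1 and 0.0416 without 24 h replicate 2, within a range of -0.083 to 0.0841 with a library left out. C3AR1 was at -0.0913 and CD36 at -0.101 with quantile normalization, and CD36 at -0.00762 without a filter. The cause was not tested.

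The members' median log2 fold change at 24 h against the control was 0.514 with library totals, and 0.513 and 0.509 with limma at the pseudocounts 0.1 and 1. It was 0.602 with quantile normalization, 0.535 without a filter, 0.617 with a mean FPKM above 5, and 0.441 to 0.507 with a library left out. The median of all genes tested moved as well, to 0.056, 0.058, 0.049, -0.032, 0.024 and -0.011 in the same order without the libraries left out. Against 30 min the members' median was 0.584 with library totals, 0.586 and 0.576 with limma, and 0.670 with quantile normalization. That of all genes was 0.094, 0.095, 0.08 and -0.028. The members' median against 30 min was 0.622 above 5 FPKM and 0.452 to 0.563 with a library left out. At 30 min against the control it was 0.0145 with quantile normalization, 0.0257 above 5 FPKM and -0.0239 to 0.0308 with a library left out.

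Over all genes at 30 min, those higher numbered 7 with limma on log2(FPKM + 1), 28 without a filter, 7 above 5 FPKM, 1 at 2-fold, and 9 to 18 with a library left out, 18 being without 30 min replicate 2. Those lower numbered 95 without a filter, 23 at 2-fold and 58 to 63 with a library left out. At 24 h against the control, 869 were higher and 808 lower above 5 FPKM, and 765 and 355 at 2-fold. Against 30 min, 913 and 787 passed above 5 FPKM, 777 and 345 at 2-fold, and 820 were lower with a pseudocount of 1. In the list of other monocyte genes, 0 were lower at 2-fold and with a pseudocount of 1, 2 without a filter, and 1 to 2 with a library left out.

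No pairing by the labels' replicate numbers was visible, since 0 of 9 same-number pairs had a correlation of deviations over 0.1. The highest value, 0.17, was between libraries of different number, control 2 and 30 min 1. Such correlations cannot show that the libraries were prepared without pairing. With the replicate number as a block, 1815 genes were higher and 1343 lower at 24 h, with 11 members higher, and no call of a member changed. Depth limits CD14, CD163, CCR2, MSR1 and LILRB4, which had few or no counts.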

Other observations

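Among genes that report on the oxidase and Toll-like receptors but are not markers, CYBC1, a chaperone of the membrane subunits, was at 11.2 ± 0.641 FPKM in the control and 16.4 ± 0.255 at 24 h (SD, n = 3). Its log2 fold change of 0.50 (SE 0.0649, adjusted p = 9e-07, edgeR) was under 1.5-fold, so it was not called, and its exons overlap those of HEXD. The GTPase RAC1, also not called, was at 90.2 ± 7.28 and 87.9 ± 3.22 FPKM (SD, n = 3). LY96, which binds lipopolysaccharide together with TLR4, was at 0.18 ± 0.101 FPKM in the control and 1.77 ± 0.528 at 24 h (SD, n = 3). Its mean over both groups was below the filter, so it was not tested in that comparison.

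SIGLEC1, a sialic acid receptor of macrophages, was listed at 0.0333 ± 0.0208 FPKM in the control, 0.103 after 30 min and 0.9 ± 0.0954 after 24 h (SD, n = 3), below 1 FPKM in each group and also not tested. LYZ, lysozyme, was among the most abundant genes of the wider monocyte list, at 292.3 ± 6.58 FPKM in the control and 243.6 ± 3.24 at 24 h (SD, n = 3). Its log2 fold change of -0.31 (SE 0.0525, adjusted p = 2.9e-05, edgeR) was under 1.5-fold. LILRA2, an activating receptor close in sequence to LILRB1, stood at 29.3 ± 1.43 FPKM in the control and 54.0 ± 0.178 at 24 h (SD, n = 3). These genes were chosen after their values were seen.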
